A study of Mus musculus with 11 samples.

Results

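The 8 normal mammary gland arrays of the series, of 11 arrays in all, were used to order the miRNAs of the late pregnant mouse gland by their signal. Members were chosen by strain and tissue alone: 2 arrays of FVB glands, 3 of Balbc glands and 3 of glands of the mixed FVB129B6 background, all from normal females that the study's methods place in late pregnancy, with no transgene, treatment or age named. The other 3 arrays held C3(1)/Tag tumors and were not ranked. On each array 334 mouse miRNA names were ranked, each from 4 spots, by the mean log2 green intensity of the spots, so that rank 1 is the brightest name. The consensus rank of a name is the mean of its 3 strain-mean ranks, so that each strain weighs the same.

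Total RNA was ligated to the dye Hy3 at its 3′ end and hybridised. A name is said to be well above background on an array if the scanner program made that call for 50% or more of its green spots. Calls are those of the green channel unless red is named. The order is therefore one of signal. The brightness of a spot depends on its probe and on labelling as well as on the number of RNA copies, and it does not order molecules between miRNAs. The labels do not say whether the arrays of a strain came from separate animals, and the titles of Balbc replicates 2 and 3 could name 2 glands of 1 mouse, so spreads and p-values refer to these arrays only. All 8 arrays lay on 1 slide, and the FVB arrays had a column of it to themselves and were dimmer: their median spot intensities were 245.5 and 188.5, against 508 to 583 for Balbc and 520.5 to 671.5 for FVB129B6. Strain and column cannot be told apart.

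A miRNA is a short RNA that guides a repressor complex to messenger RNAs, mainly through its seed, bases 2 to 8 of the mature strand. miRNAs with the same seed form a family that can reach many of the same messages. The late pregnant gland is filled with secretory alveoli, wrapped in contractile myoepithelium and set in stroma, vessels and fat, so its miRNAs come from several cell types. In such bulk samples, fewer cells of a type and less of a miRNA per cell cannot be told apart.

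Sequences were taken from RefSeq for GRCm38.p6, where 276 of the 334 names were matched, 201 of them over the whole mature strand. The sequences below carry the main patterns, with the seed in capitals. The first 5 are the let-7 members among the 25 brightest names, which share 1 seed and in part differ by a single base.
let-7c: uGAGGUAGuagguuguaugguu
let-7a: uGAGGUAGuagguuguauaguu
let-7f: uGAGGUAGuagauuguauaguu
let-7b: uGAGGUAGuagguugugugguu
let-7d: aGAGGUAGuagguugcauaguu
The next are brightest members of other families: miR-30c and miR-30a-5p share a seed, miR-200a and miR-200b have seeds 1 base apart, and miR-148a and miR-16 lead the families of their own seeds.
miR-30c: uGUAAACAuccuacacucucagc
miR-30a-5p: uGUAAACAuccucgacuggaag
miR-200a: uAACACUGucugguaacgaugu
miR-200b: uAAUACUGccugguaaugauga
miR-148a: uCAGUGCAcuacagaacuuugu
miR-16: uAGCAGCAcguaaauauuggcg
The last are shown for their position in the order. miR-451 and miR-133b changed rank with the strain. miR-153, miR-217 and miR-295 had no green spot well above background on any gland array.
miR-451: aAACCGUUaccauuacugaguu
miR-133b: uUUGGUCCccuucaaccagcua
miR-153: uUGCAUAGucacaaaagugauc
miR-217: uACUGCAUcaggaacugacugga
miR-295: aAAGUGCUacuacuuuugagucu

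The brightest names of the gland were miR-143, miR-720, let-7c and let-7a, and these were the 4 names in the top 10 of each of the 8 arrays. miR-143, known from smooth muscle and other contractile and stromal cells, had a consensus rank of 2.72. It ranked 4 and 3 on the FVB arrays, 3, 5 and 1 on the Balbc arrays, and 2, 2 and 1 on the FVB129B6 arrays. miR-720, which was later withdrawn from miRBase as a likely tRNA fragment, had a consensus rank of 2.83. Its ranks were 2 and 5 in FVB, 4, 4 and 3 in Balbc, and 1, 1 and 2 in FVB129B6 glands. For both names the strains overlapped or lay within a few places of each other. let-7c and let-7a, members of a family that represses growth and stem cell genes, followed at consensus ranks of 4.28 and 5.89. No array placed either below rank 8.

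The remaining names of the consensus top 10 were miR-690 (8.5), miR-145 (9.67), miR-148a (10.2), miR-451 (10.4), let-7f (11) and let-7b (11.8). miR-145, transcribed together with miR-143, ranked 12 and 8 in FVB, 10, 15 and 8 in Balbc, and 8 on each FVB129B6 array. miR-148a, a miRNA abundant in milk and in secretory epithelium, ranked 19 and 9 in FVB, 8, 23 and 7 in Balbc, and 3, 5 and 4 in FVB129B6 glands. Its FVB129B6 ranks were thus tight and the others wide, and the ranks of FVB and Balbc overlapped. miR-690 ranked 6 and 1 in FVB, 9, 14 and 10 in Balbc, and 12, 9 and 12 in FVB129B6 glands.

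Ranks 11 to 25 of the consensus order went to miR-146b, miR-26a, miR-19b, miR-24, miR-709, miR-23a, miR-16, miR-30c, miR-22, miR-30a-5p, miR-23b, miR-200a, miR-200b, miR-30b and let-7d. The consensus ranks of these names ran from 12.1 to 27.3. miR-30a-5p was among the most even of them. It ranked 18 and 21 in FVB, 20, 22 and 21 in Balbc, and 20, 22 and 23 in FVB129B6 glands. miR-24 lay between ranks 14 and 20 and miR-23b between ranks 21 and 27 on every array. miR-200a and miR-200b, which hold epithelial cells in their state by repressing Zeb factors, stood at consensus ranks of 24.9 and 25. They ranked 15 to 24 in FVB129B6 and 24 to 41 in Balbc glands, and the 2 FVB arrays lay far apart, at 35 and 19 for miR-200a and 33 and 13 for miR-200b. Just outside the 25 were let-7g (28.8), miR-125b (29), miR-30d (29.7) and miR-133b (30.1), so the step at place 25 was small.

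**Figure D1:**
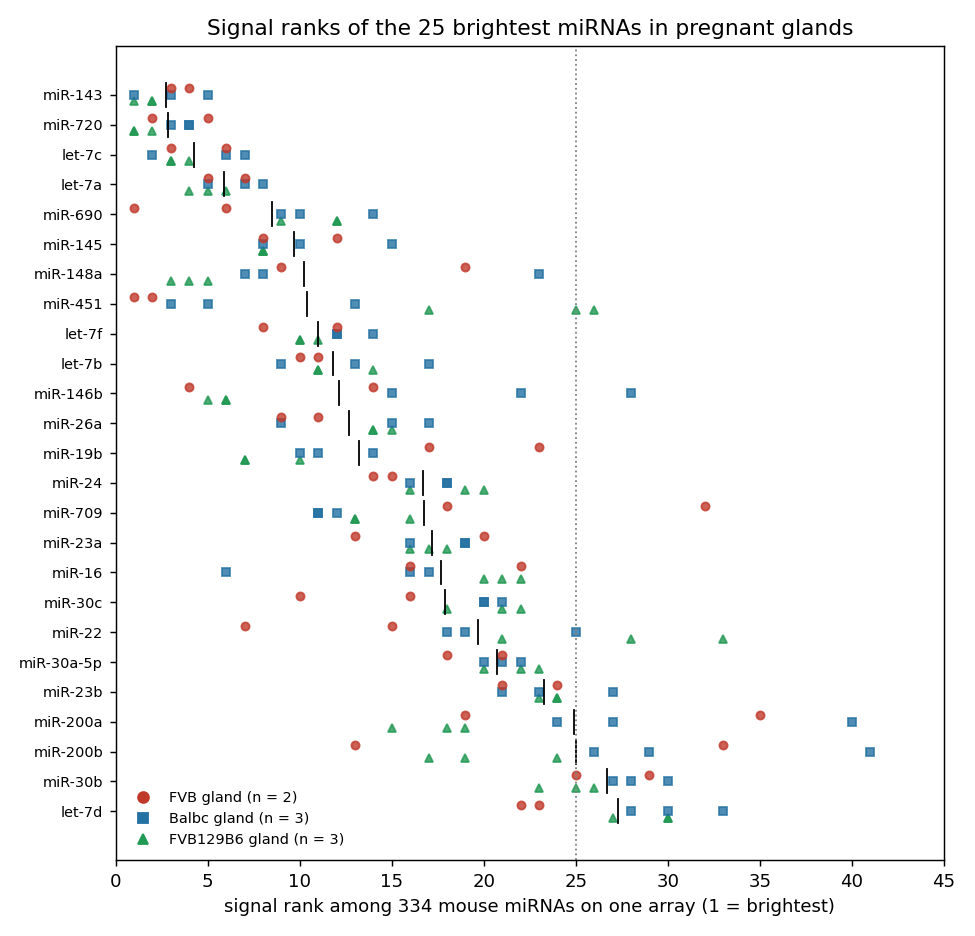
Signal rank (x axis, 1 is the brightest of 334 names) of the 25 names with the lowest consensus rank (y axis) on each of the 8 gland arrays. Points are arrays, black bars are consensus ranks and the dotted line is rank 25; miR-143, miR-720, let-7c and let-7a sit at rank 8 or better on every array, while miR-451 runs from rank 1 to rank 26.

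The signal was concentrated in few names. The brightest name of an array held 4.63% to 6.57% of the summed green signal. The 10 brightest held 38.1% and 43.6% on the FVB arrays, 38.4%, 38.01% and 34.8% on the Balbc arrays, and 33.7%, 33.2% and 32.9% on the FVB129B6 arrays, a mean of 36.6% ± 3.66 (SD, n = 8). All FVB129B6 arrays lay below all others, and the FVB and Balbc values overlapped. The 25 brightest held 64.4% ± 3.04. No green spot was saturated, so the scanner set no ceiling at the top of the order.

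**Figure D2:**
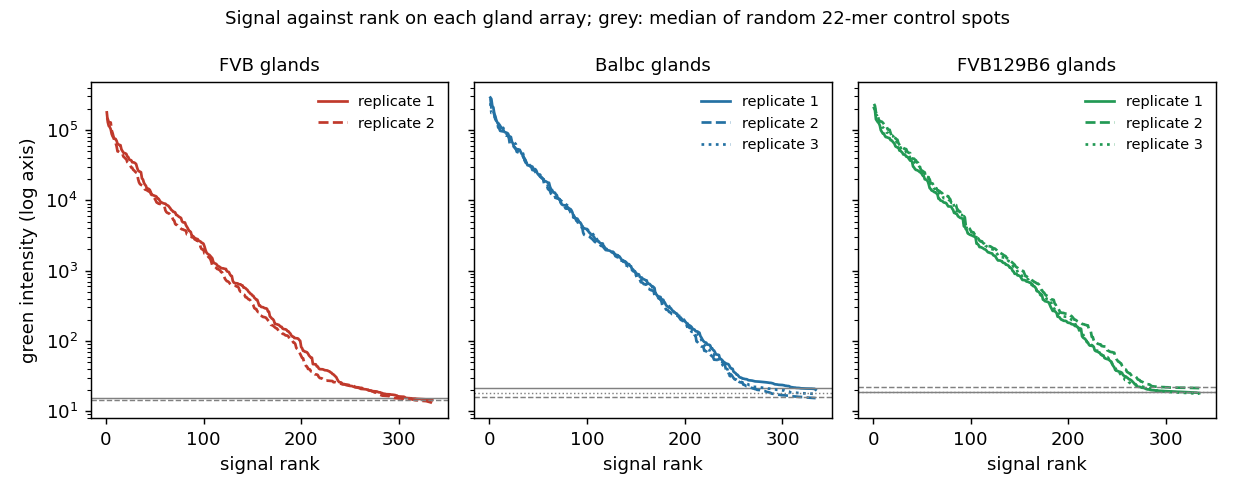
Green intensity (log axis) against signal rank on each gland array, in 1 panel per strain with a line for each replicate. Grey lines are the median of 16 random 22-mer control spots of each array; the signal at rank 1 was between 1.48e+05 and 2.89e+05, and 209 to 262 names of an array were well above background. Ranks below that have no order.

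By seed, the let-7 family was the brightest group. Its 9 names held 18.1% and 16.7% of the signal on the FVB arrays, 14.2%, 13.7% and 16.1% on the Balbc arrays, and 15.0%, 15.9% and 15.5% on the FVB129B6 arrays. The FVB arrays were highest and did not overlap the others, with 16.1% the nearest value of another strain. A share also depends on the rest of the signal. The 6 muscle names held 0.121% and 0.527% of it on the FVB arrays, 7.41% to 12.8% on Balbc and 4.84% to 5.57% on FVB129B6 arrays. With the muscle names left out of the total, the let-7 share of Balbc replicate 3 would pass that of FVB replicate 2. The strains would then overlap. Each of the 9 names was well above background on the 8 arrays, and 5 stood in the consensus top 25. Between strains, limma's F-test with Benjamini-Hochberg adjustment called 7 of the 9 on median-scaled levels, against 46.0% of the 261 names tested, and 1 of the 9 on within-array ranks, against 26.4%. The family of miR-16, miR-195, miR-15b, miR-15a, miR-497 and miR-424, regulators of the cell cycle, held 4.72% ± 0.82 (SD, n = 8). miR-30c, miR-30a-5p and miR-30e held 3.70% ± 0.51, and miR-148a, miR-152 and miR-148b held 3.05% ± 0.86. The pair of miR-26a and miR-26b held 2.94% ± 0.32, and miR-19b with miR-19a held 2.86% ± 0.61. The family of miR-200b, miR-200c and miR-429 held 2.61% ± 0.86, and that of miR-200a and miR-141 held 2.24% ± 0.75. These shares count only names matched to RefSeq, so miR-30b, miR-30d and miR-23b are not in them. With miR-30b and miR-30d added by name, the 5 miR-30 names held 6.12% ± 0.63 (SD, n = 8), between 5.61% and 7.56% of an array. They were then above the miR-16 family on each array but Balbc replicate 2, where they held 5.61% and that family 6.24%.

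**Figure D3:**
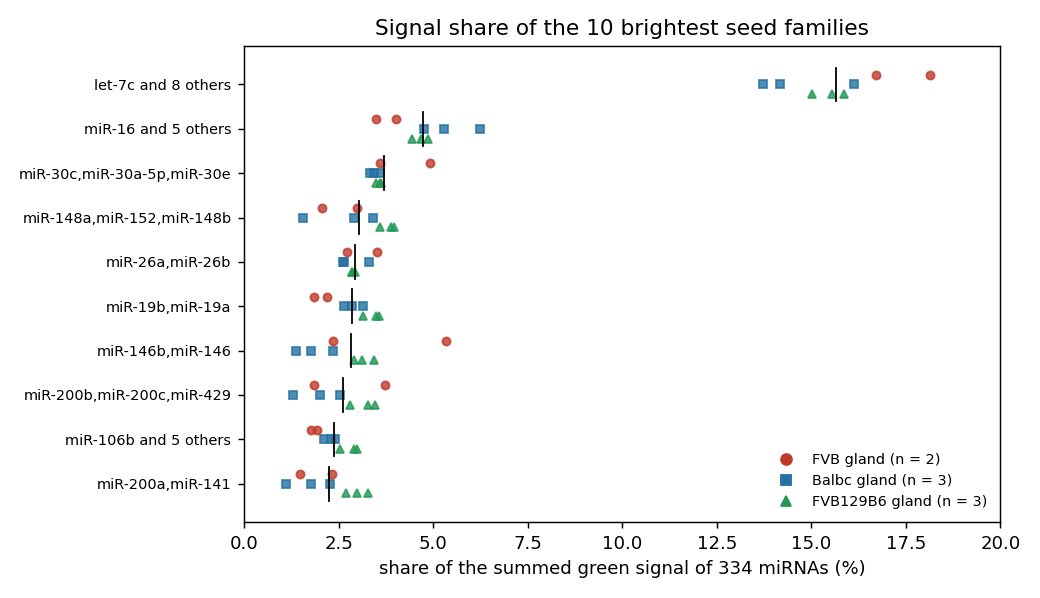
Share of the summed green signal of 334 names (x axis, %) held by each of the 10 brightest seed families (y axis) on each gland array. Points are arrays and black bars are means of 8 arrays; the let-7 family lies between 13.7% and 18.1% and every other family at 6.24% or less, where the miR-30 family is drawn without miR-30b and miR-30d.

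Near-identical members of a family did not always rank together. let-7c and let-7a differ by 1 base, as do let-7a and let-7f, and let-7c and let-7b, and these 4 names stood between consensus ranks 4.28 and 11.8. let-7e also differs from let-7a by 1 base, but its consensus rank was 59.7. In log2 units above the array median, let-7c had a mean level of 8.95 ± 0.12 (SD, n = 2) in FVB, 8.14 ± 0.13 (n = 3) in Balbc and 8.12 ± 0.13 (n = 3) in FVB129B6 glands, and let-7e of 5.56 ± 0.52, 4.59 ± 0.24 and 4.77 ± 0.12. The same held for miR-30a-5p and miR-30e, at consensus ranks of 20.7 and 77.5, for miR-19b and miR-19a, at 13.2 and 54, and for miR-29a and miR-29c, at 34.3 and 115. By contrast miR-103 and miR-107, again 1 base apart, stood at 35 and 35.4, and miR-10b and miR-10a at 64 and 77.4. How far a probe also bound a relative 1 base away was not tested.

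Several top names lie close together in the genome (GRCm38.p6). let-7a (chr13:48538239-48538260, minus strand), let-7f (chr13:48537889-48537910) and let-7d (chr13:48536078-48536099) lie within 2161 bases of each other, inside the span of no other gene of the annotation. Their consensus ranks were 5.89, 11 and 27.3. miR-24 (chr8:84208875-84208896) lies 312 bases from miR-23a (chr8:84208563-84208583), at consensus ranks of 16.7 and 17.2, and miR-27a between them stood at 33.7. miR-200a (chr4:156054911-156054932) and miR-200b (chr4:156055685-156055706), inside the span of the long noncoding gene Gm13648, stood at 24.9 and 25, and miR-429 of the same cluster at 55.1. Other neighbours lay far apart in the order. miR-451 (chr11:78073186-78073207) and miR-144, with starts 139 bases apart, stood at 10.4 and 150. miR-19b has a copy on chromosome 14 and one on the X, which its probe cannot tell apart, and stood at 13.2. Its mates on chromosome 14, miR-20a, miR-17-5p, miR-19a, miR-92 and miR-18, stood between 50.5 and 87.5. Its other mates on the X, miR-106a, miR-20b and miR-363, stood at 71.3, 140 and 240. let-7f and miR-24 likewise have a second copy elsewhere, on the X and on chromosome 13. Some lie inside longer genes, without regard to strand: miR-26a inside the spans of Ctdsp2 and Ctdspl, miR-16 inside Smc4 and Dleu2, and miR-22 inside its host transcript Mir22hg.

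The 3 strains shared much of the top of the order. Of the top 25 names of each strain, 20 were common to all 3, and 31 names were in the top 25 of any strain. On all 8 arrays 16 names were in the top 25: miR-143, miR-720, let-7c, let-7a, miR-690, miR-145, miR-148a, let-7f, let-7b, miR-26a, miR-19b, miR-24, miR-23a, miR-16, miR-30c and miR-30a-5p. Of the top 10, 5 were common to the strains, and of the top 50, 44. The names in the top 25 of a single strain were let-7d, let-7g and miR-193 in FVB, miR-125b and miR-195 in Balbc, and miR-200a and miR-30b in FVB129B6 glands. miR-1 and miR-133b were in the top 25 of Balbc and FVB129B6 but not of FVB glands.

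On average over all pairs, arrays of the same strain shared slightly more names than arrays of different strains, but this did not hold for each strain. The top 50 lists of 2 arrays had a mean of 46.9 names in common over 7 pairs within a strain (range 44 to 49) and 45.1 over 21 pairs between strains (range 43 to 48). The difference of 1.76 names had p = 0.0107 in a two-sided exact permutation test of the strain labels over 560 relabelings, where the smallest possible p was 0.00357. For the top 25 lists the means were 22.9 and 20.95 and for the top 100 lists 97.3 and 95.3, and for both lists p was 0.00357 in the same exact test. Pairs of a Balbc and a FVB129B6 array shared 46.9 names, as many as pairs within a strain, while FVB arrays shared 43.7 with Balbc and 43.8 with FVB129B6 arrays. Within strains, the FVB pair shared 44 names, the Balbc pairs 45, 48 and 45, and the FVB129B6 pairs 48, 49 and 49. Only the FVB129B6 pairs all exceeded the mean of 45.1 between strains. The call for the top 50 lists needed all FVB129B6 arrays, since without replicate 1, 2 or 3 the difference was 1.14, 1.39 and 1.12 with exact p of 0.143, 0.105 and 0.124. Over the 204 names well above background on every array, Spearman's rho of the signal across names was 0.967 to 0.997 within strains, 0.967 to 0.992 between Balbc and FVB129B6, and 0.921 to 0.952 between FVB and the others. These are descriptions across names, which are not independent replicates.

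Levels of the same name were then compared between strains, after the median log2 signal of each array was subtracted. limma's moderated F-test with Benjamini-Hochberg adjustment called 120 of the 261 names tested, or 46.0%. Of the consensus top 25 it called 17, and in 22 of the 25 the FVB mean was the highest of the 3. The calls rested on the scaling. The distance from the median to the 75th percentile of an array was 0.40 log2 units larger on the FVB arrays than on the other 6, so scaling on the 75th percentile lowers FVB levels against the others by that much. With that scaling 4 of the 25 were called, against 29.1% of all tested, and the FVB mean was highest in 19. On within-array ranks the F-test called 5 of the 25, against 26.4% of all tested. Without FVB129B6 replicate 1 or 2, the test called 76 names each time, 10 and 11 of them in the top 25, and without FVB replicate 2 it called 9 of the top 25.

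miR-451, a miRNA of maturing red cells, was the member of the top 25 that the F-test called in each of 19 fits, with other scalings or an array left out. Above the array median its log2 level was 9.5 and 9.57 in FVB, 8.19, 8.66 and 7.60 in Balbc, and 6.76, 6.76 and 7.33 in FVB129B6 glands. The 3 strains did not overlap, and the adjusted p was 0.00602, with 0.024 the highest of the 19 fits. Its rank went from 1 and 2 in FVB to 5, 3 and 13 in Balbc and 26, 25 and 17 in FVB129B6. The other erythroid names, miR-486 and miR-144, stood at consensus ranks of 92.4 and 150 and were also called by the F-test, against 46.0% of all names tested, while on within-array ranks 2 of the 3 were called, against 26.4%. For miR-486 the log2 levels of FVB (3.67 and 4.35) and Balbc (3.70, 3.91 and 3.11) overlapped, above those of FVB129B6 (1.99, 2.13 and 2.41). The list of 3, whose signal was mostly that of miR-451, held 6.71% and 5.97% of the signal on the FVB arrays. It held 3.76%, 4.89% and 2.51% on Balbc and 1.5%, 1.56% and 1.98% on FVB129B6 arrays. The part of blood in the samples was not tested.

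The largest ranges of strain-mean ranks, among names well above background on all 8 arrays, belonged to miR-206, miR-133a*, miR-1, miR-207 and miR-133b, which are named here for that range. Of these, 4 are miRNAs of skeletal or cardiac muscle. miR-133b had log2 levels of 2.80 and 5.56 in FVB, 8.95, 9.12 and 8.21 in Balbc, and 7.5, 7.65 and 7.68 in FVB129B6 glands. It was the brightest of all names on 2 Balbc arrays and ranked 105 and 55 on the FVB arrays, and the strains did not overlap. miR-1 had levels of 2.38 and 4.06 in FVB, 8.89, 8.67 and 8.06 in Balbc, and 7.25, 7.44 and 7.41 in FVB129B6 glands. The F-test gave adjusted p of 0.00626 for miR-133b and 0.00382 for miR-1. Both names were picked for their range between strains on these same arrays, so these p-values are no separate support for it. miR-499 and miR-208 of the same list were well above background on 3 arrays and on none, at consensus ranks of 238 and 265. The 6 muscle names held 0.121% and 0.527% of the signal in FVB, 12.8%, 12.0% and 7.41% in Balbc, and 4.84%, 5.57% and 4.89% in FVB129B6 glands. Whether muscle lay in the sampled tissue was not tested. miR-207 differed from these: it was highest in FVB129B6, at 1.39, 1.52 and 1.32, lower in Balbc, at 1.09, -1.03 and -0.72, and lowest in FVB, at -2.65 and -2.79.

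The pooled within-strain SD of the 204 names well above background on all arrays had a median of 0.26 log2 units, or 1.2-fold. It was 0.22 for the 51 brightest, 0.23 and 0.26 for the next groups of 51, and 0.31 for the dimmest. The median SD between spots of 1 name on 1 array was 0.066, so the spots repeated more closely than the arrays. By strain the median SD was 0.29 for FVB, 0.21 for Balbc and 0.17 for FVB129B6 glands.

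The largest within-strain SDs were those of miR-150 (1.73), miR-142-5p (1.39), miR-378 (0.98), miR-133b (0.93) and miR-703 (0.89). For miR-150 and miR-142-5p, both miRNAs of blood cell lineages and miR-150 of mature lymphocytes, 1 array stood apart. miR-150 had log2 levels of 4.86 and 3.41 in FVB, 2.48, 6.90 and 2.21 in Balbc, and 2.22, 2.39 and 2.28 in FVB129B6 glands. miR-142-5p had 4.36 and 4.81 in FVB, 3.78, 7.57 and 3.85 in Balbc, and 3.98, 3.77 and 4.29 in FVB129B6 glands. Balbc replicate 2 was the highest array for both, and also for miR-155 (2.58, against 1.00 or less elsewhere) and miR-146 (4.43, against 4.03 or less). miR-223, a miRNA of the myeloid lineage, and miR-181a did not follow. The former was 4.47 there and 4.16 to 4.67 on the other arrays, and the latter was 3.9 there and 3.88 to 5.73 on the others. The 6 leukocyte names on the array held 4.32% of the signal of that array and 0.755% to 0.997% of the others. On the same array the epithelial list was at its lowest, 3.36% against 4.70% to 7.96%, and miR-148a was at its lowest rank, 23. Without it, 20 names were still shared by the top 25 of the strains and the F-test called 99 names.

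**Figure D4:**
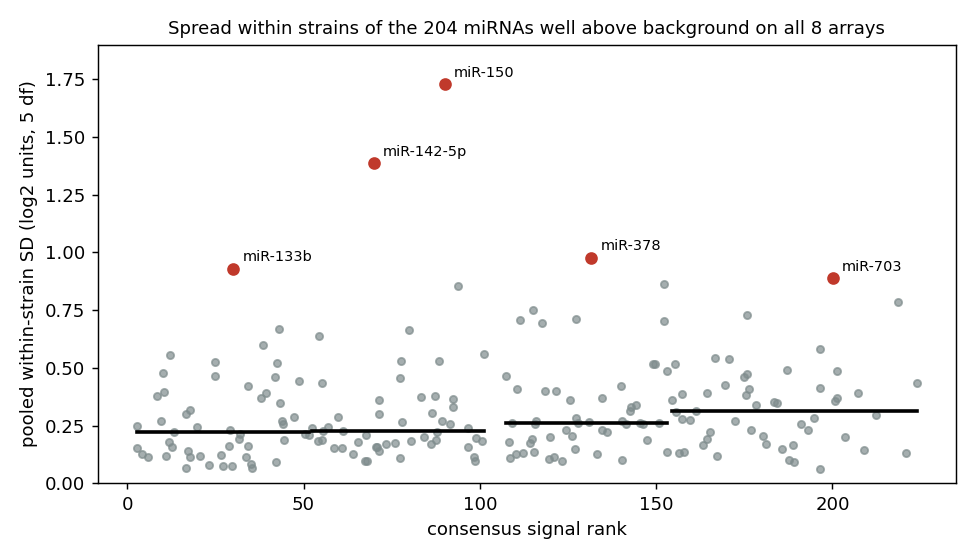
Pooled within-strain SD (y axis, log2 units, 5 degrees of freedom) against consensus signal rank (x axis) for the 204 names well above background on all 8 arrays. Grey points are names, red points the 5 largest SDs and black lines the median SD of each group of 51 names, which rises from 0.22 to 0.31.

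Lists of miRNAs known from cell types set the gland's order against what the tissue holds. The 10 epithelial names were well above background on each array, and had a median consensus rank of 48.7 against 167 for all names. The miR-200 family led, with miR-200a, miR-200b, miR-141 (39.3), miR-200c (42.3) and miR-429 (55.1), and miR-205, a miRNA of basal and myoepithelial cells, stood at 42. miR-182 and miR-96 stood at 67.8 and 71.4, and miR-183 of the same cluster last at 171. The F-test called 4 of the 10, namely miR-182, miR-96, miR-183 and miR-203, and 2 of the 10 on within-array ranks, against 46.0% and 26.4% of all names tested. The list of 11 names of secretory glands had a median rank of 29.7, with miR-148a, miR-146b, miR-30c, miR-30a-5p and miR-30b in the top 25, and held 12.3% ± 1.85 (SD, n = 8) of the signal. The F-test called 7 of the 11 on median-scaled levels, against 46.0% of all names tested, and 3 on within-array ranks, against 26.4%.

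The 8 stromal and smooth muscle names were all well above background on every array. They had a median rank of 44 and held 10.4% ± 1.17 of the signal, led by miR-143 and miR-145. limma's F-test called none of the 8, against 46.0% of all names tested. At an unadjusted p under 0.05 there was 1 of the 8, against 142 of 261, and none was called on within-array ranks, against 26.4%. The 6 leukocyte names had a median rank of 79.8, and 1 of them, miR-181a, was called, against 46.0% of all names tested. None was called on within-array ranks. miR-126-5p, from the endothelial host gene Egfl7, was well above background on 6 arrays and stood at 241; the other arm was not analysed here.

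Lists of other organs stood lower. Of 14 neuronal names 7 were well above background on all arrays, against 204 of all 334 names, and 3 had no such spot on any. Their median rank was 191, not far from the 167 of all names. The F-test called 6 of the 10 that were tested, against 46.0% of all names tested, and 5 on within-array ranks, against 26.4%. The brightest of the list were miR-128b and miR-128a, which were not called. Both names were matched to the same mature strand, so the list counts that strand under both. Mean log2 levels of miR-128b were 1.64 in FVB, 2.00 in Balbc and 1.32 in FVB129B6 glands, with an adjusted p of 0.0772. miR-124a, a miRNA of neurons, was well above background on all 8 arrays, at a consensus rank of 153. Its log2 level was 1.44 and 1.68 in FVB, 0.38, 0.09 and 0.07 in Balbc, and 0.16, 0.11 and 0.11 in FVB129B6 glands, with the FVB arrays above the rest and an adjusted p of 0.00513. Of 9 names of liver, gut or pancreas 2 were well above background throughout, miR-194 (115) and miR-122a (157), the main miRNA of hepatocytes. The 12 embryonic stem cell names had a median rank of 299.5 and none was well above background on all arrays; at best miR-290 was so on 4. The 6 testis names encoded on the X had a median rank of 277.5. The neuronal list held a mean of 0.134% of the signal of an array, the liver, gut and pancreas list 0.0677%, the embryonic list 0.00684% and the testis list 0.00362%. Of the embryonic names 10 of 12, and of the testis names 4 of 6, had under 50% of spots well above background on every array. Of all 334 names 55 did. The shares and median ranks of these 2 lists thus lie near background.

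**Figure D5:**
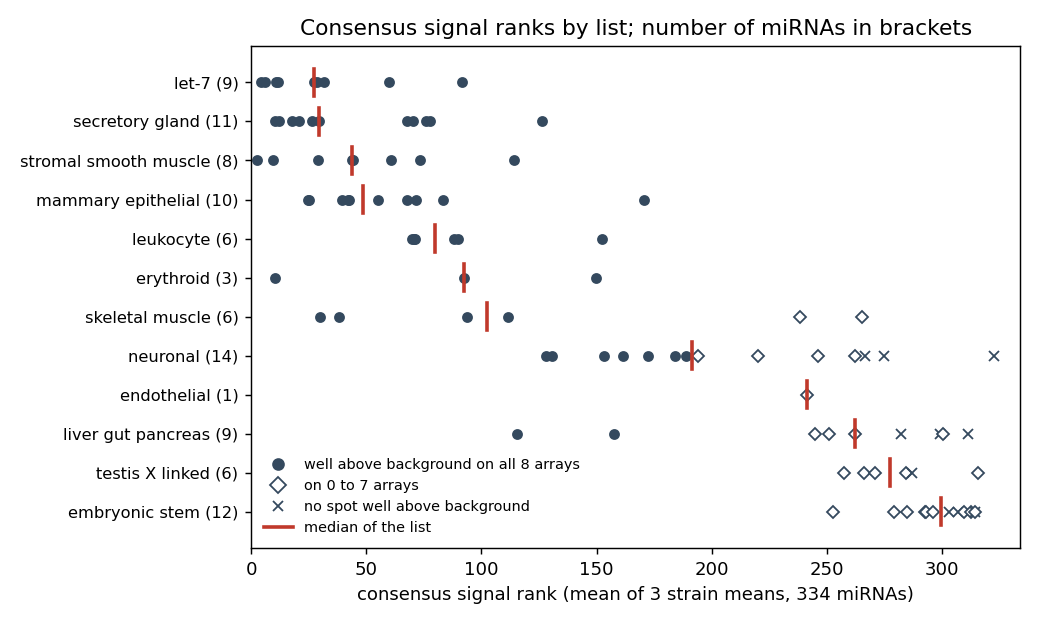
Consensus signal rank (x axis) of the names on each list of cell types or organs (y axis, number of names in brackets). Filled points were well above background on all 8 arrays, diamonds on 0 to 7 and crosses had no such spot; red bars are medians, which run from 27.3 for the let-7 names to 299.5 for the embryonic stem cell names.

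Median rank and detection also followed the miRBase number, which reflects when a miRNA was described, but the top 25 did so only in part. The median consensus rank rose with each group of numbers, from 51.7 for numbers up to 100 to 258 from 680 on. Of 55 names numbered up to 100, 52 were well above background on all arrays and 15 were in the consensus top 25. Of 68 names numbered from 101 to 200, 55 were well above background throughout, and of 54 names from 680 on, 22, or 40.7%. For the groups between 200 and 680, in rising order, the shares were 50.8%, 46.9% and 43.8%, against 61.1% of all names. Between 200 and 680 the top 25 held only miR-451, while the numbers from 680 on gave miR-690, miR-709 and miR-720. Over all matched names, GC content of the mature strand and the rank had a Spearman's rho of 0.104 (276 names). The median GC content was 40.9% for the 19 matched names of the top 25 and 45.5% for all matched names. By place in the genome, the chromosomes with the most names were 12, X, 11 and 7. Well above background throughout were 18 of 44 names on chromosome 12 and 19 of 36 on the X. The same held for 19 of 23 on chromosome 11 and 4 of 19 on chromosome 7, against 161 of all 276 matched names. The X was thus near the share of all.

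At the other end, 55 names had under 50% of their green spots well above background on every array. Of these, 21 had no green spot with that call on a gland array. They were miR-7b, miR-135a, miR-135b, miR-137, miR-153, miR-190, miR-216a, miR-217, miR-291a-5p, miR-295, miR-325, miR-367, miR-384, miR-464, miR-471, miR-688, miR-694, miR-697, miR-713, miR-721 and miR-802. Their median intensities over the 8 arrays lay between 17.7 and 22.2, where the random 22-mer control spots had array medians of 14.4 to 21.95, and the dimmest name well above background on an array had 25.9 to 35.3. Of the 16 random spots of an array, 2 were well above background in green on FVB129B6 replicate 3 and on FVB replicate 1. On the other gland arrays no random spot was. For 13 of the 21 names, no array exceeded its brightest random spot. None was well above background on a tumor array, where 15 to 64 of all 334 names were.

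Of the 21, 10 belong to the neuronal, liver, embryonic and testis lists, which hold 14, 9, 12 and 6 of the 334 names: miR-137, miR-153 and miR-384 of neurons, miR-216a, miR-217 and miR-802 of pancreas, gut or liver, miR-291a-5p, miR-295 and miR-367 of embryonic stem cells, and miR-471 of testis. A further 5, beside miR-802, carry numbers from 680 on, as 54 of all 334 names do. Their matched mature strands had a median GC content of 36.4%, against 45.5% for all matched names. miR-190 was the lowest of all matched names, with 22.7%. In green, a miRNA at this level was not detectable with these probes and labelling, which does not show that it is absent. In red, 11 of the 21 were well above background on some gland arrays.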

How the data were processed

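Late pregnant glands and tumors were profiled on a custom 2-dye array of the study. For each array the authors deposited the Feature Extraction output, with green and red intensities that are background subtracted and dye normalized, and quality calls. A second deposited file, of log2 values after global median normalization, equals log2 green intensity plus 1 constant per array.

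The 1336 plus-strand mouse spots (334 names) were taken. Non-uniform spots and population outliers were dropped, and the log2 intensities of a name were averaged and ranked per array. For tests the array median was subtracted, and names needed at least 50% of spots well above background on at least 3 of 8 arrays. The MAS5 filter of the methods was not repeated. Strain levels were tested by limma 3.58.1 (moderated F, R 4.3.3) with Benjamini-Hochberg adjustment over 261 names and a threshold of 0.05, and top lists with an exact permutation of strain labels. The fit was tested on simulated data. Probes were matched to RefSeq mature strands over at least 18 bases, by name or whole strand. Neighbours are names within 10000 bases on 1 strand. The number of arrays limits the precision.

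Named were the 25 lowest consensus ranks, the 5 largest strain ranges and within-strain SDs, undetected names and list members. Members, lists and tests were chosen with earlier results of these data known. Alternatives were other backgrounds, scalings, filters, definitions and list sizes, each array left out, Balbc replicates 2 and 3 averaged, and the replicate number as a block. Leaving out an FVB array left that strain without replicates, so the spread in those fits came from the other strains only. Python 3.11.15, numpy 2.4.6, pandas 2.3.3 and matplotlib 3.10.9 were used.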

Additional observations from a re-analysis of the deposited data

Results flagged for a closer look

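The red channel, which the ranking does not use, also carried signal. At least 50% of the spots of a name were well above background in red for 296, 294 and 292 of the 334 names on FVB129B6 replicates 1 to 3, for 295, 289 and 291 on Balbc replicates 1 to 3, and for 290 and 285 on FVB replicates 1 and 2. Between 0 and 2 of the 16 random 22-mer control spots of an array were well above background in red. On all 8 gland arrays 279 names were so, including all 25 of the consensus top. Of the 21 names never well above background in green, 11 were well above background in red on at least 1 gland array, 8 of them on all 8, against 306 and 279 of all 334 names. The labels give Hy3 as the dye of each array, the protocol allows Hy3, Hy5 or both, and what was hybridised in the red channel is not given in the sources used here, so the red values were not compared between strains.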

How the results depend on the processing

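The 20 names shared by the top 25 of the strains became 5 for the top 10 and 44 for the top 50, and 19 to 21 with an array left out. The 21 names never well above background became 55 when names with under 50%, or fewer than 2, such spots on every array were counted, 3 with the scanner's looser call of a signal significant over background, and 22 to 27 with an array left out. The 120 calls between strains became 76 with 75th percentile scaling, 69 on within-array ranks and 195 without the filter, and 76 to 103 with an array left out (76 without FVB129B6 replicate 1 or 2). The 17 calls in the consensus top 25 became 4 with normexp background or 75th percentile scaling, 3 with quantile normalization, 5 on within-array ranks, and 9 to 15 with an array left out (9 without FVB replicate 2, 10 and 11 without FVB129B6 replicates 1 and 2); the cause was not tested. With the replicate number as a block, the F-test called 96 names and 10 of the top 25. Deviations from the strain mean had a mean correlation of 0.039 over 7 pairs of arrays with the same number (range -0.277 to 0.422). Over 14 pairs with different numbers it was -0.019. Subtracting the strain mean ties these means together, so they cannot show whether the numbers pair the arrays. The top 50 difference of 1.76 was 1.12 to 2.48 with an array left out, past the threshold without any Balbc or FVB array but not without any FVB129B6 array. The median within-strain SD of 0.26 was 0.20 with normexp background and 0.20 to 0.28 with an array left out. The share of the 10 brightest names, 36.6%, was 35.6% to 37.1% with an array left out; the brightest name alone held 5.63% and the 25 brightest 64.4%. Keeping outlier spots, taking spot medians or the deposited table, and averaging Balbc replicates 2 and 3 kept the top 50 difference past the threshold, and those of them that bear on the F-test left 14 to 17 of the top 25 called. For the names set apart by rank or spread, the consensus rank stayed within its spread in 440 comparisons and moved in 2, and the strain F-test stayed on the same side of the threshold, called or not, in 485, while a call was lost in 117 and gained in 10. Dim names on the FVB arrays lie near background, which limits their ranks.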
